A study of Mus musculus with 6 samples.

Results

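Notch1, Notch2, Notch3, Notch4, Jag1, Jag2, Dll4, Hey1, Hey2 and Heyl encode the 4 Notch receptors of the mouse, 3 of their ligands and the 3 Hey transcription factors. These 10 genes were taken by symbol from the 21999 genes of the count table, and each symbol matched 1 row. RNA was sequenced from cultured lung microvascular endothelial cells of Ptprz1+/+ mice (3 isolations) and Ptprz1-/- mice (3 isolations), all of strain SV129/B6 and all untreated. Ptprz1 encodes protein tyrosine phosphatase receptor zeta 1. Each isolation pooled 2 to 5 mice of 3 to 8 weeks of age, and the cells were grown to confluence before separation on magnetic beads carrying an antibody to CD31. A library is therefore a pool of animals after culture, and the spread between libraries is the spread between isolations.

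Notch receptors are membrane proteins that bind ligands of the Jagged and Delta-like families on a neighbouring cell. Binding exposes the receptor to an ADAM protease and then to gamma-secretase, which releases the intracellular domain to join the DNA-binding protein RBPJ in the nucleus and to switch on genes of the Hey and Hes families. In vessels, Dll4 and Jag1 act in opposed ways on sprouting, Notch1 and Notch4 are the receptors best known from endothelial cells, and Notch3 is known from pericytes and vascular smooth muscle.

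The labels of the libraries were checked first. Ptprz1, the targeted gene, was counted 197, 1837 and 508 times in Ptprz1+/+ replicates 1, 2 and 3 against 1138, 1320 and 895 times in the libraries labelled Ptprz1-/-, replicates 1 to 3. These counts did not separate the genotypes (log2 fold change 0.60, standard error 0.70), so all directions below depend on how the libraries were labelled. The summed level of 12 endothelial markers was 131, 95.8 and 695 CPM (counts scaled to the library size, itself adjusted by edgeR's TMM method) in the Ptprz1+/+ libraries and 86.5, 132 and 270 CPM in those labelled Ptprz1-/-, with 0 of the 12 at 0 in any library. The VE-cadherin gene Cdh5 gave 8.70, 14.3 and 199 CPM, and then 3.60, 7.41 and 61.3 CPM, in the same order. Outside replicate 3, a single marker, Eng, made most of the endothelial sum. Library by library, Eng gave 101, 59.4 and 142 CPM, then 59.6, 115 and 90.5 CPM. The sums therefore do not rank the libraries by the other markers. The mean log2 CPM of the 12 was lowest, at 0.68, where the label was Ptprz1-/- replicate 2. The 10 fibroblast markers summed to between 10907 and 27272 CPM over the 6 libraries, so the endothelial markers were present at low levels beside them. Col1a1, Col1a2 and Col3a1 made most of the fibroblast sum in each library, and CPM does not adjust for gene length. The 2 sums are therefore not shares of cell types. The fibroblast sum was highest in replicate 3 of both genotypes, at 25673 CPM in Ptprz1+/+ and 27272 CPM where labelled Ptprz1-/-. Replicate 3 of both genotypes stood apart from the others by its endothelial markers. Between 14496881 and 17709663 counts fell on genes in each library. The filter on low counts left 13609 genes. Of these, edgeR's quasi-likelihood test gave 0 an adjusted p under 0.05 (0%) and 366 an unadjusted one (2.69%, split into 1.13% with the Ptprz1-/- label higher and 1.56% with it lower), and DESeq2 called 30 after adjustment (0.22%).

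Levels of different genes were compared per length, in FPKM (counts scaled to gene length and library size, as deposited). Notch2 was the most abundant of the 10 genes, with a median of 18.2 FPKM over the 6 libraries (range 14.6 to 28.5), and it lay above the next gene in 6 of 6. Jag1 (median 3.33 FPKM, range 0.986 to 12.3) and Notch3 (median 3.10 FPKM, range 2.67 to 12.8) followed, and their order held in 3 of 6 libraries, so the pair could not be ranked. Notch3 lay above Notch1 (median 1.60 FPKM, range 0.871 to 4.26) in 6 of 6, Notch1 above Notch4 (median 1.22 FPKM, range 0.148 to 3.79) in 6 of 6, and Notch4 above Hey2 in 5 of 6. The remaining 5 genes had medians under that of Notch4. Hey2 was at 0.342 FPKM, Hey1 at 0.284 FPKM, Jag2 at 0.109 FPKM, Dll4 at 0.0623 FPKM and Heyl at 0.0128 FPKM. Neighbours in this lower part changed places from library to library, since Hey2 lay above Hey1 in 3 of 6, Hey1 above Jag2 in 4 of 6, Jag2 above Dll4 in 4 of 6 and Dll4 above Heyl in 5 of 6.

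**Figure D1:**
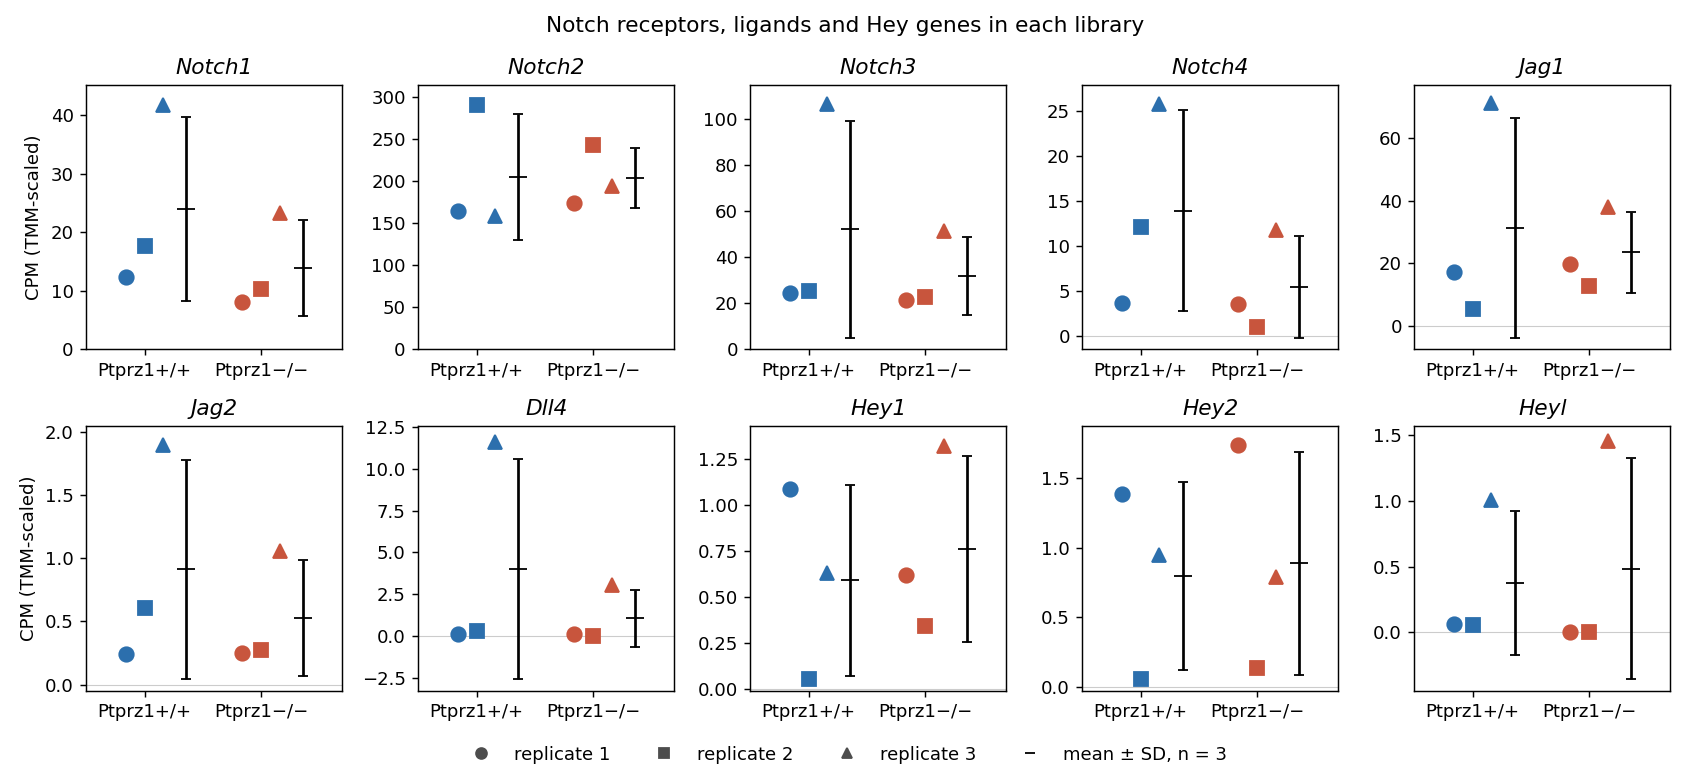
Level of each of the 10 genes in CPM, 1 panel a gene with its own axis, with 1 point per library (the shape gives the replicate) and the mean ± SD of the 3 libraries of a genotype beside the points. Points of both genotypes overlap in all 10 panels, and replicate 3 is the highest library of both genotypes for Notch1, Notch3, Notch4, Jag1, Jag2, Dll4 and Heyl.

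The question the design poses is whether any of these genes differed with the genotype of Ptprz1. For 0 of the 10 genes did the 3 libraries labelled Ptprz1-/- lie all above or all below the 3 Ptprz1+/+ libraries, while 7.28% of the 13609 genes tested did so (3.55% above and 3.73% below). Notch1, Notch2, Notch3, Notch4, Jag1, Hey1 and Hey2 passed the filter on low counts, and of these 7 genes 0 had an unadjusted p-value under 0.05, beside 2.69% of all genes tested. The adjusted p was 1.00 for each of the 7 (edgeR's quasi-likelihood test, Benjamini-Hochberg adjustment over 13609 genes). The fitted log2 fold change was below 0 for 5 of the 7 and for 50.9% of all genes tested. It was also below 0 for all 12 endothelial markers (median -1.43), of which 0 had an unadjusted p under 0.05 in the same test. With the endothelial marker level as a covariate, it was -0.36 for Notch1, -0.089 for Notch2, 0.018 for Notch3, -0.99 for Notch4 and 0.61 for Jag1. The part of the marker level in these values was not tested. Without that covariate, standard errors of the 7 genes lay between 0.28 for Notch2 and 1.09 for Hey2, against a median of 0.24 over all genes tested.

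Among the receptors, Notch1 (ENSMUSG00000026923, chromosome 2 of GRCm38 from 26457903 to 26516663, minus strand) is needed for the choice of arterial fate and restrains sprouting in endothelium. Ptprz1+/+ replicates 1, 2 and 3 had 12.4, 17.6 and 41.8 CPM of it, against 8.00, 10.3 and 23.2 CPM in replicates 1, 2 and 3 labelled Ptprz1-/-. Replicate 3 was the highest library of both genotypes and the groups overlapped. The means were 23.9 ± 15.7 and 13.8 ± 8.18 CPM (SD, n = 3 each), a log2 fold change of -0.79 (standard error 0.58, 95% interval -2.18 to 0.60). It was -0.12 without Ptprz1+/+ replicate 3 and -1.39 without the library labelled Ptprz1-/- replicate 3. With the replicate number as a block, a pairing that the labels do not state, it was -0.75 (unadjusted p = 0.00447, adjusted p = 0.640 in edgeR's quasi-likelihood test). Exons of Notch1 overlap the antisense gene 0610009E02Rik over 1068 bases and Gm13568, also antisense, over 414. Whether counting used strand is not given in the sources used here, so reads in those stretches cannot be assigned to one gene.

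Notch2 (ENSMUSG00000027878, chromosome 3 from 98013538 to 98150367, plus strand) is a broadly expressed receptor that acts in mural cells as well as in many other tissues. Its level was 164, 291 and 159 CPM in the Ptprz1+/+ libraries, against 174, 243 and 195 CPM in those labelled Ptprz1-/-. Replicate 2 was the highest of both genotypes here, and the 6 libraries lay within 1.83 times of each other, the narrowest range of the 10 genes. The means were 204.8 ± 74.8 and 204.0 ± 35.4 CPM (SD, n = 3 each) and the log2 fold change was -0.01, with a 95% interval of -0.67 to 0.66. A difference of either sign within that interval is not excluded by these libraries. The log2 fold change was -0.16 when Ptprz1+/+ replicate 3 was left out and 0.33 when Ptprz1+/+ replicate 2 was. In the gene models used here, exons of Notch2 overlap Gm42820 on the same strand over 541 bases, and the count table has no row of that name.

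Notch3 (ENSMUSG00000038146, chromosome 17 from 32120820 to 32166880, minus strand), the receptor of pericytes and arterial smooth muscle, had 24.5, 25.1 and 106 CPM in the Ptprz1+/+ libraries, against 21.3, 22.7 and 51.4 CPM in those labelled Ptprz1-/-. Replicates 1 and 2 of both genotypes lay between 21.3 and 25.1 CPM, and replicate 3 lay above them in both. The means were 52.0 ± 47.1 and 31.8 ± 16.98 CPM (SD, n = 3 each), a log2 fold change of -0.71 (standard error 0.67, 95% interval -2.33 to 0.92) that turned to 0.36 without Ptprz1+/+ replicate 3. The summed level of 12 smooth muscle and pericyte markers did not follow this order, at 4452, 873 and 1925 CPM and at 4629, 1667 and 1609 CPM in the same order of libraries. Acta2, Tagln and Pdgfrb made most of that sum in each library, so it does not rank the libraries by the other markers. Of those 12 markers, 2 (Mcam and Abcc9) did have replicate 3 as the highest library of both genotypes, as Notch3 had. Part of the transcript of Notch3 (1951 bases) aligns to Gm30232 with 83.2% identity, and its exons overlap the antisense gene Gm17276 over 488 bases.

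Notch4 (ENSMUSG00000015468, chromosome 17 from 34564268 to 34588503, plus strand) is a receptor largely restricted to endothelial cells. Its level was 3.75, 12.2 and 25.9 CPM in the Ptprz1+/+ libraries, against 3.60, 1.03 and 11.8 CPM in those labelled Ptprz1-/-, the lowest of these on 15 counts. Replicate 3 was again the highest of both genotypes, and the library labelled Ptprz1-/- replicate 2 was the lowest of the 6. The means were 13.9 ± 11.2 and 5.48 ± 5.64 CPM (SD, n = 3 each), and the log2 fold change of -1.34 (standard error 0.97, 95% interval -3.69 to 1.00) was the farthest from 0 of the 7 genes tested. Without the library labelled Ptprz1-/- replicate 3 it was -2.59 (unadjusted p = 0.0443, adjusted p = 0.990 in edgeR's quasi-likelihood test), and without Ptprz1+/+ replicate 3 it was -0.54.

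Of the ligands Jag1, Jag2 and Dll4, Jag1 (ENSMUSG00000027276, chromosome 2 from 137081456 to 137116644, minus strand) made most of the summed FPKM. Jag1 protein is made by endothelial and mural cells and serves signalling between them. The Ptprz1+/+ libraries had 17.2, 5.39 and 71.2 CPM, against 19.8, 12.6 and 37.8 CPM in those labelled Ptprz1-/-. Both genotypes had replicate 2 as the lowest and replicate 3 as the highest library. The means were 31.3 ± 35.1 and 23.4 ± 13.03 CPM (SD, n = 3 each). The log2 fold change of -0.42 (standard error 0.90, 95% interval -2.57 to 1.74) turned to 1.05 without Ptprz1+/+ replicate 3, to 0.52 with only replicates 1 and 2, and to 0.61 with the endothelial marker level as a covariate, so no direction could be given.

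Dll4 (ENSMUSG00000027314, chromosome 2 from 119325784 to 119335962, plus strand) encodes the Delta-like ligand of arterial and sprouting tip cells. Reads of Dll4 numbered 2, 6 and 184 in Ptprz1+/+ replicates 1, 2 and 3, against 2, 0 and 46 in replicates 1, 2 and 3 labelled Ptprz1-/-. Nearly all counts of Dll4 thus came from replicate 3 of the 2 genotypes, at 11.6 and 3.04 CPM, and the others were at or under 0.330 CPM. The count of 0 allows up to 3 counts, or 0.206 CPM, which covers counting error only. Dll4 did not pass the filter on low counts and has no fitted fold change. Its mean log2 CPM (with a prior count of 2) differed by -1.25 between the genotypes, with p = 0.6 in an exact two-sided permutation test that cannot go below 0.1 with 3 libraries against 3, and the difference was 0.47 without Ptprz1+/+ replicate 3. Exons of Dll4 share 214 bases with the antisense gene Gm14207.

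Jag2 (ENSMUSG00000002799, chromosome 12 from 112908590 to 112929495, minus strand), a second Jagged ligand, had 4, 11 and 30 counts in the Ptprz1+/+ libraries, against 4, 4 and 16 in those labelled Ptprz1-/-. In CPM this was 0.242, 0.605 and 1.89, and 0.248, 0.275 and 1.06, with replicate 3 highest in both. Jag2 was not tested for its low counts, and its mean log2 CPM differed by -0.54 (exact two-sided permutation test, p = 0.7) and by 0.12 without Ptprz1+/+ replicate 3.

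The Hey genes encode repressors that Notch signalling switches on in vessels and heart. Hey1 (ENSMUSG00000040289, chromosome 3 from 8663362 to 8667039, minus strand) had 18, 1 and 10 counts in the Ptprz1+/+ libraries and 10, 5 and 20 in those labelled Ptprz1-/-. Hey2 (ENSMUSG00000019789, chromosome 10 from 30832359 to 30842801, minus strand), a factor of arterial fate, had 23, 1 and 15 counts, and 28, 2 and 12 counts. Both were lowest in replicate 2 of each genotype. Neither had replicate 3 as the highest library of both genotypes, as 10 of the 12 endothelial markers had. Acta2, the smooth muscle actin, was also lowest in replicate 2 of both genotypes, at 145 and 332 CPM against 2157 and 703 CPM in the other Ptprz1+/+ libraries and 1636 and 367 CPM in the other libraries labelled Ptprz1-/-, and its part in the Hey1 and Hey2 counts was not tested. Of the 12 smooth muscle and pericyte markers, 3 (Acta2, Mcam and Lmod1) had replicate 2 lowest in both genotypes, and the other 9 did not. The same held for 5 of 12 endothelial, 3 of 10 fibroblast and 3 of 6 mesothelial markers. It held for 1 of 7 epithelial, 1 of 5 leukocyte, 0 of 6 arterial and 0 of 6 lymphatic markers, so it was not particular to smooth muscle.

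Normalized, Hey1 was at 0.591 ± 0.517 and 0.762 ± 0.504 CPM (SD, n = 3 each), a log2 fold change of 0.37 (standard error 0.92, 95% interval -1.84 to 2.59). Hey2 was at 0.797 ± 0.680 and 0.889 ± 0.804 CPM (SD, n = 3 each), a log2 fold change of 0.18 (standard error 1.09, 95% interval -2.46 to 2.81). Both intervals reach more than 2 to either side of their centre on the log2 scale, and the values rest on 1 to 28 counts per library. Leaving out replicate 3 labelled Ptprz1-/- turned Hey1 to -0.27, and leaving out replicate 1 of that label turned Hey2 to -0.75. Heyl (ENSMUSG00000032744, chromosome 4 from 123233556 to 123249875, plus strand), the third Hey gene and one of mural cells, had 1, 1 and 16 counts in the Ptprz1+/+ libraries and 0, 0 and 22 in those labelled Ptprz1-/-. Like Dll4 it was read almost only in replicate 3 of both genotypes. It was not tested, and its mean log2 CPM differed by -0.21 (exact two-sided permutation test, p = 0.6) and by 0.67 without Ptprz1+/+ replicate 3.

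Dll4, Notch4 and Hey2 are shown with the 250 bases before their transcription start, from RefSeq on GRCm38.p6 (8 of the 10 genes matched, and Hey1 and Heyl did not). Dll4 and Notch4 had the widest ranges over the libraries and Hey2 is a target of the pathway. The windows are chr2:119325534-119325783 on the plus strand for Dll4, chr17:34564045-34564294 on the plus strand for Notch4 and chr10:30842784-30843033 on the minus strand for Hey2, written 5′ to 3′ with the start site just after the last base. Capitals mark letters of TGGGAA, the core of the RBPJ motif, or of its reverse complement.
Dll4: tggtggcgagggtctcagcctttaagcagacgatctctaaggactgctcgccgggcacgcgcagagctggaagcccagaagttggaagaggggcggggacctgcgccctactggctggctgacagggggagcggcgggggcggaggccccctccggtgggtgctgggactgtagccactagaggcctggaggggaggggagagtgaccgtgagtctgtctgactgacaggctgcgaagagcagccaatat
Notch4: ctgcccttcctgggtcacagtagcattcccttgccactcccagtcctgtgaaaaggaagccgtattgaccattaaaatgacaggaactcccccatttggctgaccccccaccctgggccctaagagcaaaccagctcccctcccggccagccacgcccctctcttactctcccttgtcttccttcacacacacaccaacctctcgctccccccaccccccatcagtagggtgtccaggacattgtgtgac
Hey2: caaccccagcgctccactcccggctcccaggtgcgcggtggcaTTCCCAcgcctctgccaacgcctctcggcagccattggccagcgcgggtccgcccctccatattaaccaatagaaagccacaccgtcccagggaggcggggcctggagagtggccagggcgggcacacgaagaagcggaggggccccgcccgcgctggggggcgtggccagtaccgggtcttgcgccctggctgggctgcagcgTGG
Both strands of the 8 windows, each with 50 further bases past the start, were searched for TGGGAA and for CACGTG, an E-box of the kind that Hey proteins bind. TGGGAA was found in Hey2, as the reverse complement TTCCCA from base -207 and as TGGGAA from base -3, the latter running past the start and so shown only by its first letters. None of the other 7 windows held it, while 25.6% of 32851 RefSeq promoters did. CACGTG was in 0 of the 8 and in 7.15% of all promoters. GC made up 65.6% of the Dll4 sequence, 58.4% of that of Notch4 and 71.6% of that of Hey2.

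Within a library, the receptors kept Notch2 in front. Its share of the summed receptor FPKM was 76.0%, 80.2% and 41.3% in the Ptprz1+/+ libraries, against 80.4%, 85.1% and 63.6% in those labelled Ptprz1-/-. Notch3 took 14.8%, 9.02% and 36.03%, and 12.8%, 10.4% and 21.9%. The share of Notch2 was thus lowest, and that of Notch3 highest, in replicate 3 of both genotypes. Notch1 held between 3.99% and 12% and Notch4 between 0.574% and 10.7%, both with their highest share in replicate 3 of each genotype. The summed level of the 4 receptors was 20.2, 35.5 and 35.5 FPKM in the Ptprz1+/+ libraries and 21.3, 25.7 and 30.5 FPKM in those labelled Ptprz1-/- (exact two-sided permutation test, p = 0.6).

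Jag1 made between 78.1% and 97.4% of the ligand FPKM, and Dll4 between 0% and 19.1%. The share of Dll4 reached 19.1% in Ptprz1+/+ replicate 3 and 10.4% in the library labelled Ptprz1-/- replicate 3, and lay at or under 7.35% in the other 4. The summed ligand level was 3.10, 1.23 and 15.7 FPKM in the Ptprz1+/+ libraries and 3.74, 2.18 and 8.16 FPKM in those labelled Ptprz1-/- (exact two-sided permutation test, p = 1). Shares of the Hey genes rest on few counts and ran from 29.2% to 74.3% for Hey1, from 25.3% to 70.8% for Hey2 and from 0% to 26.0% for Heyl. Over the 10 shares, the exact two-sided permutation test between the genotypes gave p-values between 0.3 and 1, and between 0.778 and 1.00 after Benjamini-Hochberg adjustment over the 10.

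**Figure D2:**
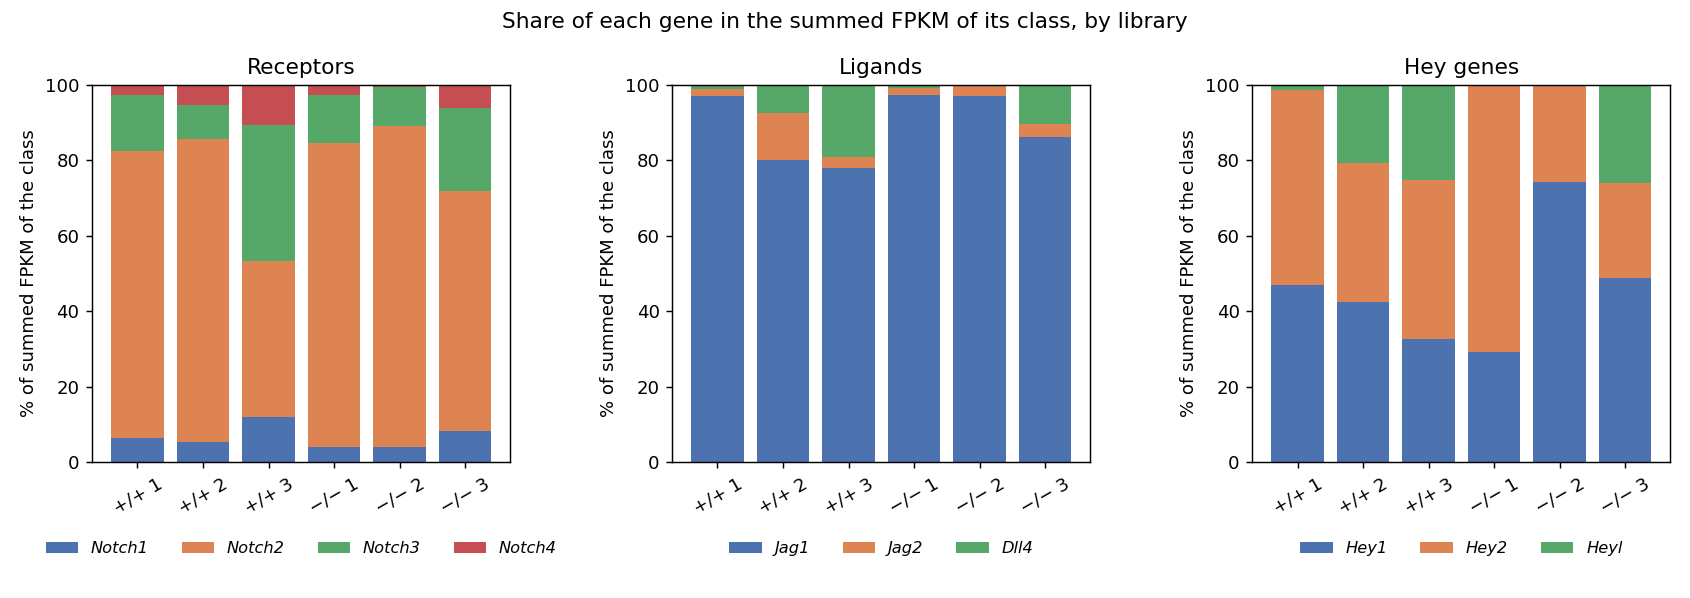
Share of each gene in the summed FPKM of its class (receptors, the ligands Jag1, Jag2 and Dll4 without Dll1, Hey genes), in percent, 1 stacked bar per library. Notch2 is the largest part of every receptor bar, from 41.3% to 85.1%, Jag1 the largest part of every ligand bar, from 78.1% to 97.4%, and the Hey bars rest on few counts.

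Libraries of the same genotype also differed from each other. Of the 10 genes, 7 (Notch1, Notch3, Notch4, Jag1, Jag2, Dll4 and Heyl) had replicate 3 as their highest library in both genotypes, as did 10 of the 12 endothelial markers. So did 5 of 10 fibroblast, 4 of 6 arterial and 2 of 12 smooth muscle and pericyte markers, so it was not particular to endothelial markers. The same was seen in 1 of 6 lymphatic, 1 of 5 leukocyte, 0 of 6 mesothelial and 0 of 7 epithelial markers. Among genes that passed the filter this held for 4 of the 7 members (57.1%) and for 1924 of all 13609 (14.1%), which is a description, since replicate 3 was singled out after the values were seen. The part that the amount of endothelial RNA had in these levels was not tested. Ptprz1+/+ replicate 3 lay above the higher of the other Ptprz1+/+ libraries by 2.37 times for Notch1, 4.24 for Notch3, 2.12 for Notch4, 4.14 for Jag1 and 3.13 for Jag2. The library labelled Ptprz1-/- replicate 3 lay above the higher of its group by 2.25 times for Notch1, 2.26 for Notch3, 3.29 for Notch4, 1.91 for Jag1 and 3.85 for Jag2. Both genotypes thus had the same replicate number high for these genes, and Ptprz1+/+ replicate 3 lay above the library labelled Ptprz1-/- replicate 3 by 1.80 times for Notch1, 2.07 for Notch3, 2.19 for Notch4, 1.88 for Jag1, 1.79 for Jag2 and 3.82 for Dll4. Heyl went the other way (0.695 times). With 1 library each, these ratios have no error, and in pooled RNA fewer cells of a type and less RNA per cell cannot be told apart.

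Each gene was therefore also set against the endothelial markers of its own library. The mean log2 CPM of the 12 markers was 1.53, 1.56 and 5.32 in the Ptprz1+/+ libraries and 1.26, 0.68 and 3.68 in those labelled Ptprz1-/-, a range of 4.63. On the log2 CPM scale, the range of Dll4 over the 6 libraries was 6.56, and it was 1.92 once the marker level was subtracted. The range narrowed likewise from 4.49 to 2.68 for Notch4, from 3.69 to 2.21 for Jag1 and from 3.66 to 2.12 for Heyl. It moved little for Jag2 (2.46 to 2.30), Notch3 (2.31 to 2.41) and Notch1 (2.37 to 2.63). For Notch2 it widened from 0.87 to 5.25, so this gene did not follow the endothelial markers from library to library. The range widened from 3.01 to 4.47 for Hey1 and from 3.37 to 4.85 for Hey2. At the lowest counts, however, the prior count sets most of the log2 level. Hey1, Hey2 and Heyl, with 1 count each, all had a relative level of -4.04 in Ptprz1+/+ replicate 2. Ranges of Dll4 and the Hey genes are thus partly set by the prior count, and no conclusion is drawn from them. Relative to the markers the genotypes overlapped for each of the 10 genes, with the lowest p for Jag1 (difference 1.09 on the log2 scale, exact two-sided permutation test, p = 0.2, adjusted over the 10 p = 0.778). Per 100 counts of Cdh5, Dll4 had 1.39, 2.30 and 5.84 counts in the Ptprz1+/+ libraries and 3.45, 0 and 4.96 in those labelled Ptprz1-/-. Outside replicate 3 these values rest on 0 to 6 counts of Dll4.

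**Figure D3:**
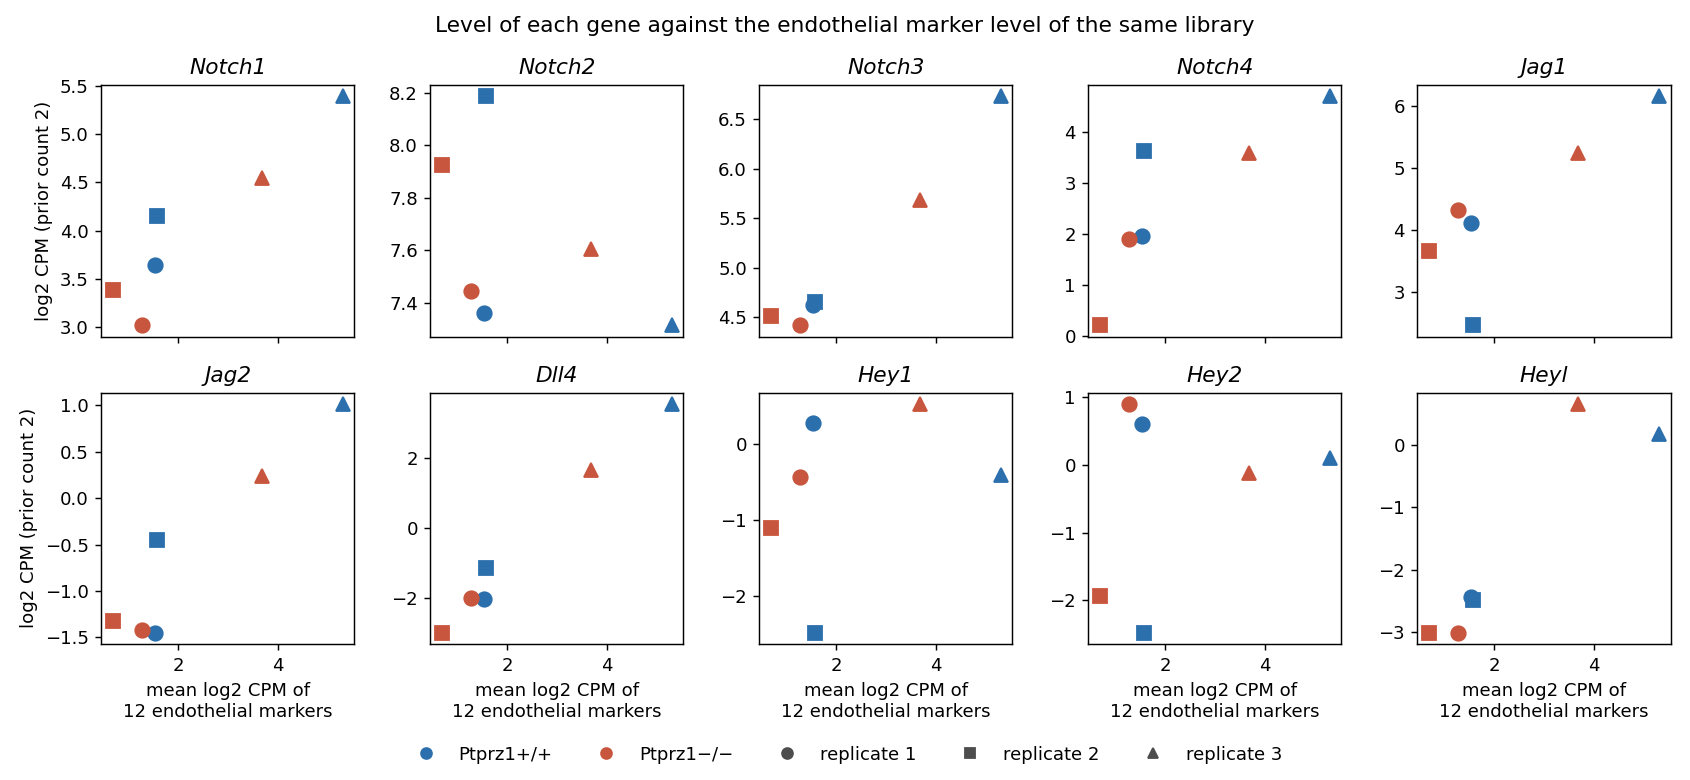
Level of each gene (vertical, log2 CPM with a prior count of 2) against the mean log2 CPM of 12 endothelial markers in the same library (horizontal), 1 point per library. The 2 triangles, replicate 3 of each genotype, lie to the right at 5.32 and 3.68, and each is the highest point of its own genotype for Notch1, Notch3, Notch4, Jag1, Jag2, Dll4 and Heyl.

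For the 6 genes whose highest library lay at least 8 times above the lowest (with 0.1 CPM as the lowest level allowed), the genes with the nearest profile over the 6 libraries were listed by the root mean square difference of centred log2 CPM. Nearest to Dll4 were Cldn5 (0.38), a tight junction gene of endothelium, the receptor gene Tie1 (0.43), Pecam1 (0.46), which encodes CD31, the endothelial transcription factor gene Erg (0.47) and Stab1 (0.61). Notch4 was nearest to Sema3g (0.30), a semaphorin gene, then to Cyth4 (0.37), Hcls1 (0.38), Plekhg1 (0.42) and Dpysl4 (0.43). Jag1 lay nearest to Ppp1r16b (0.27), Nkd1 (0.37), Pde2a (0.38), Ccdc88c (0.39) and Prex2 (0.41). The genes nearest to Heyl were Tmem252 (0.33), Podxl (0.33), Sparcl1 (0.39), Fbn2 (0.41) and Tnik (0.45). Hey1 was nearest to Myom1 (0.22), Dqx1 (0.30), Tgtp2 (0.37), Fam26f (0.41) and Epb4.1l4a (0.43), and Hey2 to Klhl30 (0.41), Sema3f (0.45), Klhdc8a (0.46), Tspan33 (0.49) and Shroom2 (0.51). These are likenesses over 6 libraries, on few counts for Dll4 and the Hey genes. Sema3g, Cyth4, Hcls1 and Dpysl4, listed for Notch4, were also low, at 0 to 3.41 CPM, as was Ccdc88c, listed for Jag1, at 0.165 to 2.08 CPM. Of the 12 endothelial markers, 4 (Cldn5, Tie1, Pecam1 and Erg) were among the 5 genes nearest to Dll4.

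Beyond the 10 genes, 48 further genes of the pathway were in the table and 42 passed the filter. Of the 42, 0 had an unadjusted p-value under 0.05 (2.69% of all genes tested did), 23 had a fitted log2 fold change above 0 and 19 below, and their median was 0.0084 against -0.0047 over all genes tested. Libraries of the genotypes did not overlap for 2 of the 42, both higher where labelled Ptprz1-/- (7.28% of all genes tested did so in either direction and 3.55% in that one). Pofut1, whose enzyme adds the fucose that Notch receptors need to bind ligand, was at 98.3, 63.6 and 86.8 CPM in the Ptprz1+/+ isolations, against 102.5, 136 and 102.6 CPM in those labelled Ptprz1-/-. This gave a fold change of 0.46 on the log2 scale (standard error 0.21, 95% interval -0.04 to 0.95, unadjusted p = 0.0661, adjusted p = 1.00 in edgeR's quasi-likelihood test). Snw1, which encodes a coactivator of the RBPJ complex, was at 34.1, 38.3 and 39.4 CPM and at 39.5, 40.2 and 44.6 CPM, a log2 fold change of 0.15 (standard error 0.12). The 3 libraries of each genotype lay within 1 CPM of the other genotype's at their nearest point for Snw1.

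The next genes act in cleavage of the receptor, in transcription and downstream of it. Adam10, the protease of the first cut, was at 197 ± 37.2 and 193 ± 18.8 CPM (SD, n = 3 each), with a log2 fold change of -0.03 (95% interval -0.46 to 0.39). Rbpj was at 102 ± 23.9 and 97.6 ± 38.2 CPM (SD, n = 3 each), with a log2 fold change of -0.07 (95% interval -0.81 to 0.67). Efnb2, an arterial gene downstream of Notch, was at 68.6 ± 14.1 and 57.7 ± 9.14 CPM (SD, n = 3 each), with a log2 fold change of -0.25 and a 95% interval of -0.73 to 0.23. It lay between 51.3 and 81.4 CPM over the 6 libraries and was not highest in replicate 3 of either genotype. By contrast, 4 of the 6 arterial markers (Gja5, Sox17, Cxcr4 and Bmx) were highest in replicate 3 of both genotypes. Of 6 arterial markers, Efnb2 included, 3 passed the filter and 0 had an unadjusted p under 0.05. Among them Gja5, which encodes the arterial connexin of the gap junction, had 0.242, 0.110 and 1.45 CPM in the Ptprz1+/+ isolations against 0.248, 0.961 and 1.39 CPM in those labelled Ptprz1-/-, with replicate 3 highest in both. The intervals of Adam10, Rbpj and Efnb2 all include 0, and that of Adam10 lies within 0.5 of 0 on the log2 scale. By role, 0 of 9 genes of the proteases, 0 of 10 nuclear factors, 0 of 11 genes of trafficking and turnover, 0 of 4 of glycosylation, 0 of 3 other ligands and 0 of 5 other targets had an unadjusted p under 0.05.

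Among the targets outside the Hey family, Hes1, a repressor that Notch induces in many tissues, was at 8.82, 10.8 and 14.95 CPM in the Ptprz1+/+ isolations, against 13.4, 51.3 and 7.40 CPM in those labelled Ptprz1-/-. The library labelled Ptprz1-/- replicate 2 stood alone, and the log2 fold change of 1.06 (standard error 0.70) was -0.15 without it. Lfng, which encodes a glycosyltransferase that alters the choice of ligand, was likewise high in 1 library, at 6.39 CPM in that labelled Ptprz1-/- replicate 1 against 0.686 to 3.28 CPM in the others, and its log2 fold change of 0.80 (standard error 0.88) was -0.35 without it. Nrarp, a target that feeds back on Notch, was at 7.51 CPM (119 counts) in Ptprz1+/+ replicate 3 and at 0.0604 to 0.528 CPM in the other 5, the library labelled Ptprz1-/- replicate 3 included (8 counts). Per 100 counts of Cdh5, Nrarp had 0.694, 3.45 and 3.78 counts in the Ptprz1+/+ isolations and 12.1, 0.926 and 0.862 in those labelled Ptprz1-/-, so the groups overlapped. Of the other ligands, Dll1 was at 3.13 ± 1.72 and 3.16 ± 2.31 CPM and Dlk1 at 5.18 ± 0.277 and 6.20 ± 3.38 CPM (SD, n = 3 each), with log2 fold changes of 0.01 and 0.26. Both signs turned with single libraries left out, Dll1 giving -0.54 once replicate 3 labelled Ptprz1-/- was dropped and Dlk1 giving -0.18 once replicate 2 of that label was.

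**Figure D4:**
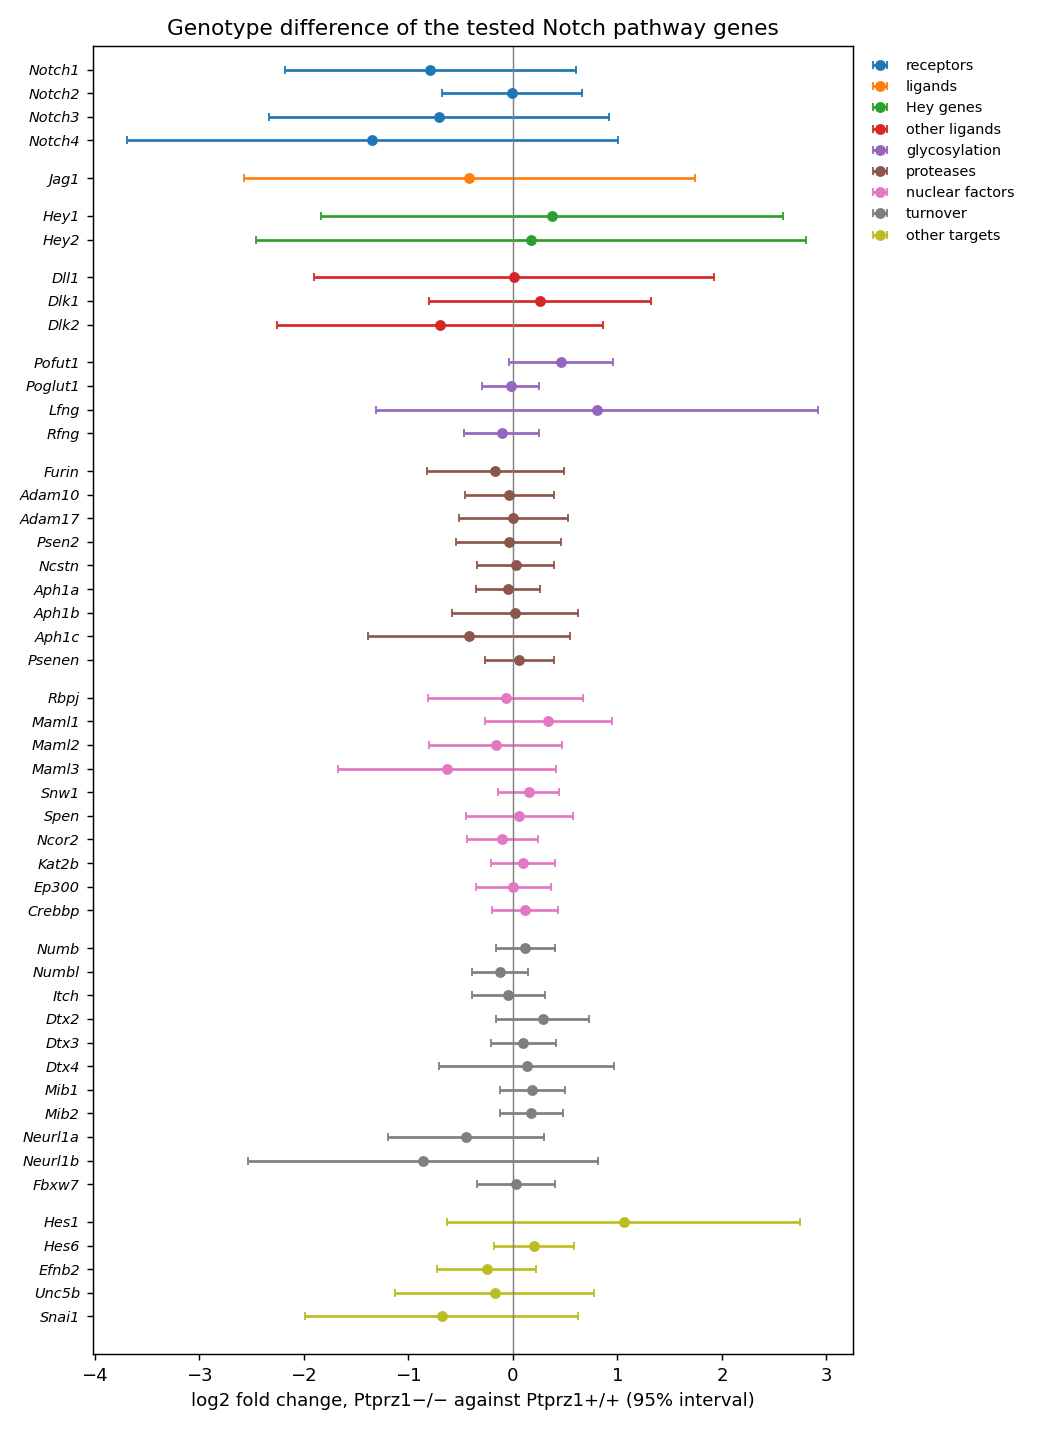
Fitted log2 fold change (point) with its 95% interval (bar) for the 7 members and 42 further pathway genes that passed the filter, grouped by role, with values above 0 higher in the libraries labelled Ptprz1-/-. Every bar crosses 0, and the bars of the receptors, Jag1 and the Hey genes are wider than those of most proteases and nuclear factors.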

How the data were processed

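RNA from 6 libraries (3 per genotype) was sequenced by the authors. The authors deposited raw read counts for each gene in each library and FPKM values computed from those counts and gene lengths. The submitters' processing notes name STAR, HTSeq, TopHat, DESeq2 and edgeR with GRCm38 (mm10), without roles. Depth was between 14496881 and 17709663 counts per library. Deposited fold changes, p-values and group means are the authors' own comparison and were not used.

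Here, counts were analysed in R 4.3.3 by the quasi-likelihood test of edgeR 4.0.16, after TMM scaling and filterByExpr, with no term but genotype and Benjamini-Hochberg adjustment over 13609 genes at 0.05. A fit with the replicate number as a block, DESeq2 1.42.0 and limma 3.58.1 (voom) were alternatives. Log2 CPM used a prior count of 2. For shares, sums and untested genes, exact two-sided permutation was used. The functions were tested on simulated data, with large fold changes placed in genes above a count minimum and the simulated spread between libraries capped. That test does not cover genes of few counts or wide spread. Gene models were those of GENCODE M21, and shared sequence was sought with minimap2 2.31. Named were the 10 members, a set of pathway genes and markers, every pathway gene past an unadjusted p of 0.05 or with groups that did not overlap, and the 5 genes nearest in profile to wide-ranging members. Members, lists and rules were chosen with earlier results of these data known. Unc5b, Dlk2, Maml3 and Neurl1a, and ratios between replicate 3 and the other libraries, were added after their values were seen. 1 gene of the pathway list is not reported here.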

Additional observations from a re-analysis of the deposited data

How the results depend on the processing

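Of 510 recomputed values, 59 changed sign. The count of genes at an adjusted p under 0.05 (0 in the quasi-likelihood test) was 30 with DESeq2 and 17 with edgeR's likelihood ratio test, and 0 to 0 with each library left out. At an unadjusted p under 0.05 it was 366, and 553 without a filter on low counts and 312 to 676 (without Ptprz1+/+ replicate 1) with each library left out. Members at that level numbered 0 to 1 (Notch4 without the library labelled Ptprz1-/- replicate 3), and other pathway genes 0 to 2 (Pofut1 and Maml3 without Ptprz1+/+ replicate 1, Unc5b and Dlk2 without the library labelled Ptprz1-/- replicate 1, Hes1 without that of replicate 3), 1 with upper-quartile normalization (Pofut1) and 1 with the endothelial covariate (Neurl1a).

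Whether the replicate numbers pair the libraries is not stated and was not settled here. Deviations from the group means correlated at 0.446, -0.061 and 0.523 for numbers 1, 2 and 3. Replicates 1 and 3 of both genotypes correlated best with their own number, and replicate 2 of both did not. With the replicate block in edgeR's model, 690 genes passed an unadjusted 0.05, and 1 member, Notch1, did (log2 fold change -0.75, unadjusted p = 0.00447, adjusted p = 0.640 in edgeR's quasi-likelihood test). Notch2 (0.039), Jag1 (0.14) and Dll1 (-0.18) changed sign.

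Signs also changed for Notch2 without the filter (0.0076) and with limma voom (0.048), Jag1 (0.22) and Dll1 (-0.27) with voom, and Dll1 with upper-quartile normalization (-0.0034). With the endothelial covariate, Notch3 (0.018), Jag1 (0.61) and Adam10 (0.068) did, and with replicates 1 and 2 only, Jag1 (0.52), Hey1 (-0.22), Adam10 (0.042), Dll1 (-0.17), the Hey2 share (3.93 percentage points) and Notch1 relative to the markers (-0.12). Heyl without the filter (0.39) and Dll4 relative to Cdh5 alone (0.047) changed too. The causes were not tested.

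With each library left out, log2 fold changes ran from -0.16 to 0.33 for Notch2, -1.25 to 0.36 for Notch3, -0.96 to 1.05 for Jag1, -0.27 to 1.17 for Hey1, -0.75 to 0.85 for Hey2, -0.43 to 0.14 for Rbpj, -0.15 to 1.49 for Hes1, -0.35 to 1.63 for Lfng, -0.15 to 0.12 for Adam10, -0.18 to 0.62 for Dlk1 and -0.54 to 0.50 for Dll1. Differences of mean log2 CPM ran from -1.11 to 0.12 for Jag2, -2.64 to 0.47 for Dll4 and -1.43 to 0.67 for Heyl. Shares differed by -1.79 to 17.7 percentage points for Notch2, -10.4 to 3.11 for Notch3, -5.01 to 0.28 for Jag2, -1.69 to 20.8 for Hey1 and -18.1 to 4.63 for Hey2. Relative to the markers, log2 differences ran from -0.58 to 0.68 for Notch1, -0.44 to 1.90 for Notch2, -0.093 to 0.96 for Notch3, -1.22 to 0.12 for Notch4, -0.21 to 0.93 for Jag2 and -0.81 to 0.14 for Dll4. Depth limits Jag2, Dll4 and the Hey genes, which had 30 counts or fewer in all libraries but those of Dll4 in replicate 3.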
